A study of Mus musculus with 5 samples.

Results

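The 4 members of the nuclear factor I (NFI) family of transcription factors, *Nfia*, *Nfib*, *Nfic* and *Nfix*, were followed across the cells of the sorted retinas. They were taken by gene symbol from the 33696 genes that the libraries share, and all 4 were detected in every library. Their unique molecular identifier (UMI) counts, each standing for 1 captured transcript molecule, were summed per library and cell class. Müller glia (MGs), the radial glia of the retina, were defined as cells with at least 1000 UMIs, at most 15% of UMIs from mitochondrial genes, and at least 0.5% of UMIs from *Glul*, *Rlbp1*, *Slc1a3*, *Clu* and *Aqp4* together. No NFI gene took part in that definition or in any other cell class.

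NFI proteins bind DNA as dimers and are known for switching neural progenitors toward glial fate. In the retina, NFI factors mark late progenitors and mature MGs, and they are counted among the factors that hold MGs in a quiescent state. *Nfia*, *Nfib* and *Nfix* are also used by subsets of retinal bipolar and amacrine interneurons, whereas *Nfic* is expressed in many tissues.

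All animals were *Glast-CreERT2*; *Rosa26-Ai65* mice on the C57BL/6J background, aged 12 to 20 weeks, with males and females pooled. The *Glast* promoter drives a tamoxifen-dependent Cre in MGs, and the Ai65 allele makes tdTomato only after both Cre and FlpO recombination. Retinas received an ShH10-serotype AAV in which a *Gfap* promoter drove FlpO together with either *mKate2*, a red fluorescent protein (control), or *Yap5SA*, a YAP coactivator that cannot be switched off by Hippo phosphorylation. Tamoxifen was injected to activate the Cre. The titer that the paper states was higher for *mKate2* AAV than for *Yap5SA* AAV, so dose differed along with cargo. Cells from pooled retinas, 16 for *mKate2* AAV and 21 for *Yap5SA* AAV, were sorted for tdTomato 56 days after injection and captured for 3' single-cell sequencing. The sorting protocol names both tdTomato-positive and tdTomato-negative cells, and the paper states that the sequenced cells were the tdTomato-positive ones. Both *mKate2* AAV libraries and *Yap5SA* AAV replicates 1 and 3 were used. *Yap5SA* AAV replicate 2 was left out because it shared 1361 cell barcodes with replicate 1, 99.8% of those in the smaller library, whereas no other pair shared more than 7. Nothing states that the libraries of a group came from separate animals, so p-values measure the spread between libraries, which may be technical.

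*Nfia* (ENSMUSG00000028565) lies on chromosome 4 of GRCm39 at 97660971 to 98007111, on the plus strand. *Nfib* (ENSMUSG00000008575) lies on the same chromosome at 82208410 to 82623987, on the minus strand. *Nfic* (ENSMUSG00000055053) occupies 81232020 to 81291469 of chromosome 10, and *Nfix* (ENSMUSG00000001911) occupies 85426505 to 85527046 of chromosome 8, both on the minus strand. *Nfia* and *Nfib* span 346 and 416 kb, of which 3.26% and 3.95% are annotated as exon, whereas *Nfic* spans 59.5 kb and *Nfix* 101 kb. Introns therefore make up most of all 4 genes. On the strand of the members, only *Nfib* overlapped other counted genes, *Gm57123* and *Gm11267*, which had at most 7 UMIs in the MGs of any library. On the opposite strand, *E130114P18Rik*, which overlaps *Nfia*, reached 262 to 428 CPM in MGs (UMIs per 1000000 UMIs of the sum). *Gm11266*, which overlaps *Nfib*, reached 49.3 to 164 CPM.

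The 250 bases before an annotated start of *Nfia*, *Nfic* and *Nfix* are shown because *Nfic* had the cell class pattern least like that of the other members. They come from RefSeq, in build GRCm38.p6 rather than the GRCm39 of the counts, and 3 of the 4 members had an entry. Positions were not converted between the builds, so where a window lies relative to the gene spans above was not established. Whether these starts are used in these cells was not tested. Capitals mark CG dinucleotides, the sites of DNA methylation. The windows are chr4:97581693-97581942 on the plus strand for *Nfia*, chr10:81427174-81427423 on the minus strand for *Nfic*, and chr8:84780083-84780332 on the minus strand for the first of the 4 starts listed for *Nfix*.
Nfia: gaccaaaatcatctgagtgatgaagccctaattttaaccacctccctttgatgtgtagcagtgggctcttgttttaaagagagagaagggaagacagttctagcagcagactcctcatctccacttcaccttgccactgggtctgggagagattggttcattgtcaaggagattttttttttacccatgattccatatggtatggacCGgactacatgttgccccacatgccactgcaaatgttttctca
Nfic: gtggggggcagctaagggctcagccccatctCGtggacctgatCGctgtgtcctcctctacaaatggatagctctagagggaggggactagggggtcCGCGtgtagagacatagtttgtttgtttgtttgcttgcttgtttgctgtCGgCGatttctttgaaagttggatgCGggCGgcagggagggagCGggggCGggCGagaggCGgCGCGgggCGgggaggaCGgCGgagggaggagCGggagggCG
Nfix: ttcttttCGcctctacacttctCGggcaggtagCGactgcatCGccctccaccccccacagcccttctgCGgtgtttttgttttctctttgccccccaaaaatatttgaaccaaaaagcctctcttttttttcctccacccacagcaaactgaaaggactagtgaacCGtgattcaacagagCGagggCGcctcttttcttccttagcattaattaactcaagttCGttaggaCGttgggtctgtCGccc
The *Nfic* window held 19 CG dinucleotides, more than 80.3% of 32851 RefSeq windows of that length, and its GC content was 63.2%. The *Nfia* window held 1 CG, more than 7.87% of windows, at 44.8% GC, and the *Nfix* window held 11 at 49.2% GC, against medians of 6 and 52.4% over all windows. Both strands were searched for TTGGC, the core letters that NFI proteins recognise, and for GGAATG, the letters bound by the TEAD partners of YAP. Neither was present in these 3 windows, although TTGGC occurred on either strand in 41.5% of all windows and GGAATG in 12.6%. Among the other starts listed for *Nfix*, 2 held 1 TTGGC match each.

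The 4 libraries held 15293 cells, 13134827 to 50938304 UMIs each, and 10751 cells passed the limits on UMIs and mitochondrial share. MGs made up 6542 of these, namely 1499 and 2898 of control replicates 1 and 2 and 804 and 1341 of *Yap5SA* AAV replicates 1 and 3. Values for all 4 libraries are given in this order below. All 14 genes of an MG marker list had UMIs in the MGs of every library, at a sum of 27544 to 34385 CPM. That sum did not tell MGs from microglia and macrophages, at 23463 to 33851 CPM, of which *Apoe* alone gave 22077 to 32863 CPM. Without *Apoe* and the 5 genes of the MG definition, a choice made after these values were seen, the list summed to 4821 to 6129 CPM in MGs, 660 to 1111 CPM in microglia and macrophages and at most 608 CPM in the other classes. The remaining cells were named by marker gates as rods (1156), cones (98), bipolar cells (473), amacrine cells (270) or microglia and macrophages (1141), and 1071 cells passed no gate. A class was summed in a library only with at least 20 cells, so rods, cones, bipolar and amacrine cells were measured only in *mKate2* AAV replicate 2 and *Yap5SA* AAV replicate 3. These libraries stood apart from the other pair in several ways. Their MGs had a median of 2919 and 2920 UMIs, against 6193 and 10776, and a median of 10.4% and 8.40% of UMIs from ribosomal protein genes, against 4.01% and 5.06%. Summed rod markers reached 1118 and 2071 CPM in their MGs, against 139 and 22.6, and Cell Ranger 9.0.1 rather than 8.0.0 made their counts. Pigment epithelium markers, a list that includes the gate gene *Rlbp1*, reached 6706 CPM in the MGs of *Yap5SA* AAV replicate 3 and 1379 to 2086 CPM in the others.

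*Nfia*, *Nfib* and *Nfix* were high in MGs and low in photoreceptors, whereas *Nfic* was found in every class, at class means from 67.5 CPM in amacrine cells to 223 CPM in cones. *Nfia* stood at 443 and 665 CPM in the MGs of both *mKate2* AAV libraries and at 662 and 686 CPM in those with *Yap5SA* AAV, a mean of 614 ± 115 CPM (SD, n = 4 libraries). In *mKate2* AAV replicate 2 and *Yap5SA* AAV replicate 3, it reached 726 and 765 CPM in bipolar cells, 318 and 412 CPM in amacrine cells, 17.5 and 19.0 CPM in rods, and 5.21 and 25.8 CPM in cones. Microglia and macrophages, the immune cells of the retina, held 40.1 to 120 CPM over the 4 libraries. From high to low the order was bipolar cells, MGs, amacrine cells, microglia, rods and cones, and only rods and cones had overlapping library ranges. The cone values rest on 4 and 18 UMIs. With cells named by clusters instead of gates, amacrine cells held 261 CPM in *mKate2* AAV replicate 2 and 261 CPM in *Yap5SA* AAV replicate 3.

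*Nfib* stood at 392, 469, 566 and 490 CPM in MGs, in the same order of libraries, a mean of 479 ± 71.5 CPM (SD, n = 4). Bipolar cells, at 508 and 443 CPM, lay within the range of the MGs. With cells named by clusters instead of gates, bipolar cells held 595 CPM in *mKate2* AAV replicate 2, above every MG library, and 497 CPM in *Yap5SA* AAV replicate 3. Amacrine cells followed at 271 and 303 CPM, below every MG library. Rods held 11.2 and 6.60 CPM and cones 6.51 and 2.87 CPM, the latter from 5 and 2 UMIs. Microglia and macrophages held 0, 69, 19 and 2 *Nfib* UMIs, which was 12.8, 10.1 and 3.8 CPM where it was detected, and the count of 0 allows up to 8.02 CPM (3 UMIs of that sum). The range of microglia overlapped those of rods and of cones.

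*Nfix* stood at 334, 505, 417 and 391 CPM in MGs, a mean of 412 ± 71.3 CPM (SD, n = 4). Amacrine cells came next, at 307 and 230 CPM, and their range did not reach that of the MGs. With cells named by clusters instead of gates, amacrine cells held 351 CPM in *mKate2* AAV replicate 2, above the lowest MG library, and 237 CPM in *Yap5SA* AAV replicate 3. Bipolar cells differed most from their *Nfia* and *Nfib* pattern here, with only 86.7 and 74.4 CPM. Microglia held 36.1 to 80.2 CPM, rods 31.9 and 14.8 CPM, and cones 53.4 and 2.87 CPM. The 4 classes below amacrine cells overlapped their neighbours in the order. The gated cone values rest on 41 and 2 UMIs. With cells named by clusters, cones held 2.83 CPM in *mKate2* AAV replicate 2, from 2 UMIs, and 0 UMIs in *Yap5SA* AAV replicate 3.

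*Nfic* had another order. Cones had the highest mean, at 258 and 188 CPM, followed by rods at 170 and 117 CPM and microglia and macrophages at 82.8 to 217 CPM. MGs held 82.5, 126, 117 and 114 CPM, a mean of 110 ± 18.9 CPM (SD, n = 4), and bipolar cells held 88.5 and 68.4 CPM. Amacrine cells were lowest at 69.3 and 65.8 CPM. In the order of the means, each class from rods downward overlapped the next, and cones did not overlap rods. Cones did overlap microglia and macrophages, which held 217 CPM in *Yap5SA* AAV replicate 3, above the 188 CPM of cones there. The plot of member levels by class shows these values.

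**Figure D1:**
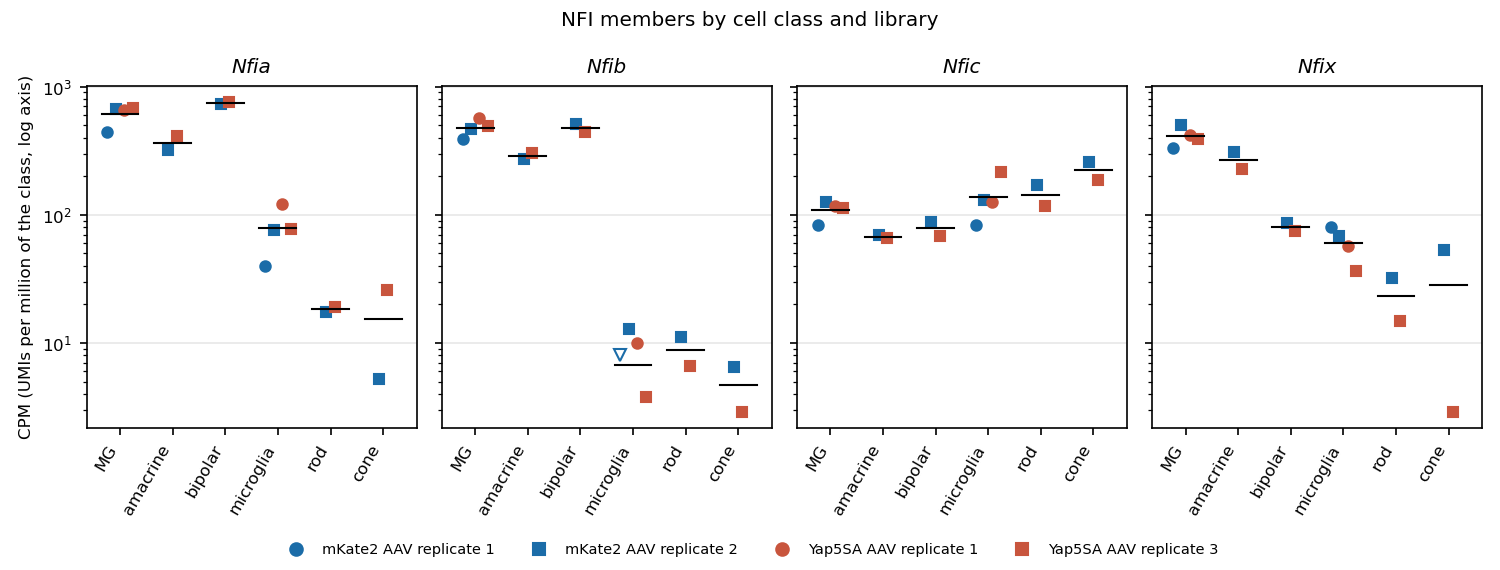
Level of each NFI member (CPM of the class, log axis) by cell class, with a point per library and a bar at the mean; the open triangle marks a sum with 0 UMIs of *Nfib*, drawn at the level of 3 UMIs. *Nfia*, *Nfib* and *Nfix* drop from at least 334 CPM in MGs to at most 53.4 CPM in rods and cones, while *Nfic* lies between 65.8 and 258 CPM in every class.

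Each class was compared with MGs in 1 edgeR quasi-likelihood fit over 16668 genes, with the library as a block and Benjamini-Hochberg adjustment. Cell classes differ in a large share of their transcriptome, so a call was common: 46.9% of genes passed against rods, 37.7% against cones, 53.0% against microglia and macrophages, 40.3% against amacrine cells and 44.6% against bipolar cells. Members called were 3 of 4 against rods, 3 against cones, 4 against microglia and macrophages, 3 against amacrine cells and 2 against bipolar cells, 15 of 20 contrasts in all. Among all genes, 29.1%, 21.9%, 30.5%, 21.7% and 23.5% were called higher in MGs in those 5 contrasts, and 17.9%, 15.8%, 22.6%, 18.7% and 21.0% lower. The size of the differences separated the members more than the count of calls did.

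Against photoreceptors, which turn light into signals, *Nfia*, *Nfib* and *Nfix* differed by more than 4 on the log2 scale. *Nfia* was higher in MGs than in rods by 5.33 ± 0.49 (log2 fold change ± SE, edgeR adjusted p = 1.17e-06), *Nfib* by 6.03 ± 0.52 (adjusted p = 7.92e-07) and *Nfix* by 4.38 ± 0.52 (adjusted p = 9.44e-06). Within *mKate2* AAV replicate 2 and *Yap5SA* AAV replicate 3, the MG level of *Nfia* was 38.1 and 36 times the rod level, that of *Nfib* 42.0 and 74.2 times, and that of *Nfix* 15.8 and 26.5 times. Rods were sequenced more deeply than MGs there, with medians of 8835 and 3729 UMIs. Against cones, *Nfia* was higher by 5.73 ± 0.53, *Nfib* by 7.07 ± 0.62 and *Nfix* by 4.37 ± 0.55 on the log2 scale, with edgeR adjusted p of 2.55e-06, 1.74e-06 and 2.87e-05. The cone fold changes rest on 2 to 41 UMIs of a member per library and ranged from 3.79 to 7.60 when a library was left out. *Nfic* differed from neither: the log2 fold change was 0.03 ± 0.27 against rods (edgeR adjusted p = 0.947), turning to -0.14 when scaled by total UMIs alone, and -0.49 ± 0.27 against cones (adjusted p = 0.178), which passed at -0.78 under that scaling (adjusted p = 0.0482).

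Against microglia and macrophages the contrast was measured in all 4 libraries. *Nfib* was higher in MGs by 5.39 ± 0.39 on the log2 scale (edgeR adjusted p = 5.08e-08), *Nfia* by 2.60 ± 0.31 (adjusted p = 7.25e-06) and *Nfix* by 2.42 ± 0.36 (adjusted p = 4.61e-05). In single libraries the MG level of *Nfia* was 5.50 to 11.0 times that of microglia, and *Nfib* reached 36.6 and 56.2 times in *mKate2* AAV replicate 2 and *Yap5SA* AAV replicate 1. Against the 2 *Nfib* UMIs of microglia in *Yap5SA* AAV replicate 3 the ratio was 129 (exact 95% interval 35.7 to 1065), and against 0 UMIs in *mKate2* AAV replicate 1 the MG level was at least 48.9-fold higher. *Nfic* was lower in MGs in the fit over all 4 libraries, -0.67 ± 0.21 (edgeR adjusted p = 0.0139). That call was lost without *Yap5SA* AAV replicate 3 (-0.34, adjusted p = 0.533), without *mKate2* AAV replicate 2 (-0.71, adjusted p = 0.0694) and with total-UMI scaling (-0.30, adjusted p = 0.270). The microglia contrast is also the one in which the scaling moved the median of all genes most, from 0.27 to 0.71 on the log2 scale.

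**Figure D2:**
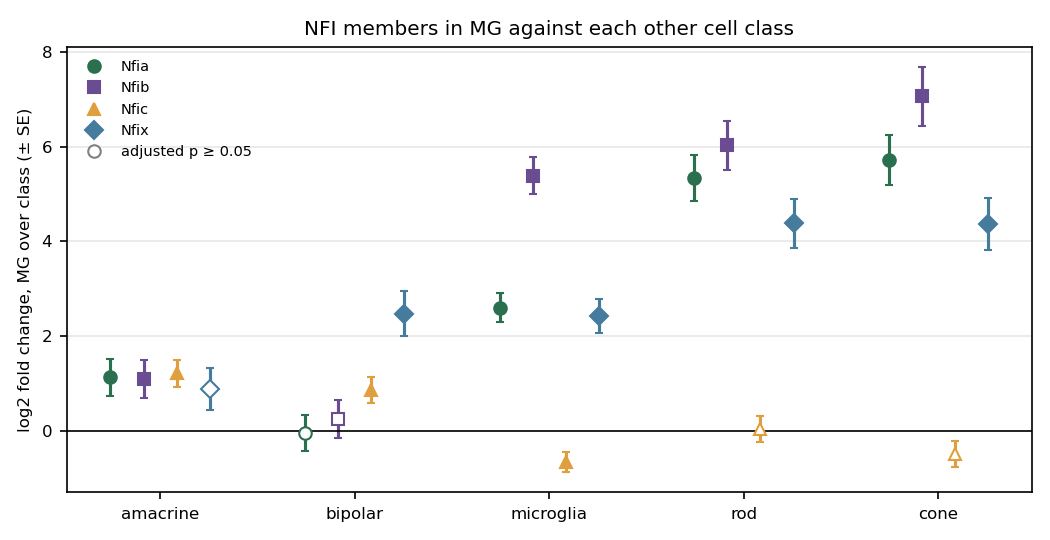
Log2 fold change of each NFI member in MGs over each other cell class (points, ± SE from the edgeR fit); open symbols did not pass an adjusted p of 0.05. *Nfia*, *Nfib* and *Nfix* lie above 4 against rods and cones, while *Nfic* lies between -0.67 and 1.21 in all 5 contrasts.

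The inner retinal interneurons were closer to MGs. Bipolar cells, which relay photoreceptor signals, did not pass in *Nfia* (-0.04 ± 0.38 on the log2 scale, edgeR adjusted p = 0.939) or in *Nfib* (0.25 ± 0.40, adjusted p = 0.639), which does not show that the levels were equal. With bipolar markers required at 2 times the share of UMIs, *Nfib* passed at 1.18 (adjusted p = 0.0365). *Nfix* was higher in MGs than in bipolar cells by 2.47 ± 0.47 (adjusted p = 0.00068), 5.82 and 5.25 times within the 2 libraries. *Nfic* was higher by 0.86 ± 0.28 (adjusted p = 0.0212), a call lost at 0.72 with total-UMI scaling and at 0.60 with an MG gate of 1%. Against amacrine cells, which shape signals sideways with GABA or glycine, *Nfia* was higher by 1.13 ± 0.39 (adjusted p = 0.0338), *Nfib* by 1.09 ± 0.41 (adjusted p = 0.0465) and *Nfic* by 1.21 ± 0.29 (adjusted p = 0.0037), while *Nfix* at 0.88 ± 0.44 did not pass (adjusted p = 0.126). The amacrine values moved with the gate. With amacrine markers required at 2 times the share of UMIs, *Nfib* stood at 3.14 and *Nfix* at 3.30 (both called), and with an MG gate of 1% all 4 members stood between 0.52 and 0.61 and none passed.

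The classes named amacrine and bipolar proved to be mixtures with respect to the members, and their parts are given as values with no test, since they were chosen after the levels had been seen. Amacrine cells were split by UMIs of *Gad1* or *Gad2*, which make GABA, and of *Slc6a9*, the glycine transporter. In cells with *Gad1* or *Gad2* and no *Slc6a9* UMI (62 in *mKate2* AAV replicate 2, 13 in *Yap5SA* AAV replicate 3), *Nfib* stood at 43.8 and 0 CPM and *Nfix* at 21.9 and 0 CPM. In cells with *Slc6a9* and neither *Gad* gene (37 and 16), *Nfib* stood at 496 and 531 CPM and *Nfix* at 579 and 440 CPM, as high as in MGs. *Nfia* did not share this split, at 240 and 279 CPM in the former and 194 and 324 CPM in the latter, and *Nfic* went the other way, at 101 and 108 CPM against 31.2 and 56.1 CPM. Cells with both kinds of UMI (66 and 11) lay near the *Slc6a9* cells, at 351 and 396 CPM of *Nfib* and 448 and 371 CPM of *Nfix*. Amacrine-gated cells with neither (31 and 19) were shallow, with a median of 3162 and 2785 UMIs, and held 1076 and 1161 CPM of *Nfia*. Their median share of UMIs from the MG gate genes was 0.147% and 0.369%, against at most 0.0217% in the other amacrine subsets. Whether they are amacrine cells was not tested, so their *Nfia* level is not read as an amacrine trait.

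Bipolar cells fell into 4 Leiden clusters with distinct combinations of *Nfia* and *Nfib*. A cluster of 116 cells led by *Grik1*, a kainate receptor gene known from OFF bipolar cells, had 2013 CPM of *Nfib* and 689 CPM of *Nfia*. A cluster of 196 cells led by *Cntn5* had the reverse, 388 CPM of *Nfib* and 1524 CPM of *Nfia*. Both were low in the cluster of 61 cells led by *Prkca* and *Trpm1*, genes of rod bipolar cells, at 14.3 CPM of *Nfib* and 65.7 CPM of *Nfia*, and in the cluster of 137 cells led by *Slit2* and *Cdh8*, at 7.0 and 39.0 CPM. These CPM are pooled over libraries, and *mKate2* AAV replicate 2 gave most of the cells. Among cells with at least 2000 UMIs, it gave 105 *Grik1*-led and 54 *Prkca*-led cells, and *Yap5SA* AAV replicate 3 gave 8 and 6. With every cell thinned to 2000 UMIs, *Nfib* was seen in 96.2% of 105 *Grik1*-led cells of *mKate2* AAV replicate 2, *Nfia* in 71.4% and both in 67.6%. In the *Cntn5*-led cells, 64.6% of 147 had *Nfia* and 35.4% *Nfib* in that library, and 62.5% and 40.0% of 40 in *Yap5SA* AAV replicate 3. In the *Slit2*-led cells of *mKate2* AAV replicate 2, 8.33% of 108 had *Nfia* and 0 had *Nfib*, which allows a share with a UMI of up to 2.78% and does not limit the share of cells expressing it. *Nfix* was highest of the 4 bipolar clusters in the *Cntn5*-led one, at 155 CPM, and *Nfic* in the *Prkca*-led one, at 135 CPM. The class mean of *Nfia* or *Nfib* in bipolar cells is thus an average over clusters with very different levels of a member.

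**Figure D3:**
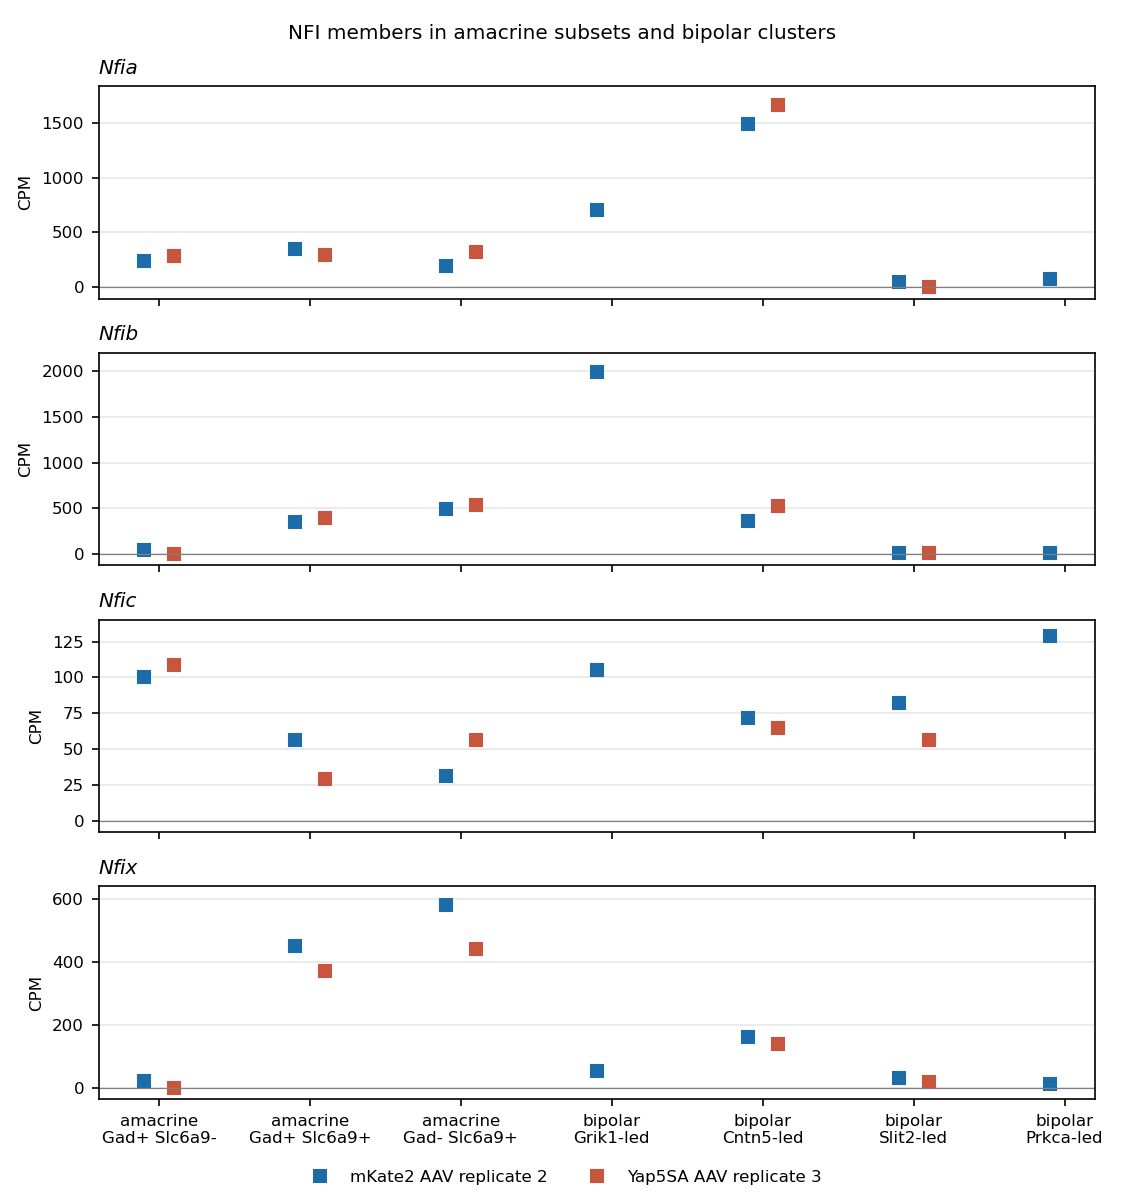
Level of each NFI member (CPM) in amacrine cells split by *Gad1* or *Gad2* and *Slc6a9* UMIs and in the 4 bipolar clusters named by their leading gene, for the 2 libraries that held these cells; a cluster with under 20 cells in a library has no point. *Nfib* and *Nfix* are near 0 in *Gad*-only amacrine cells, *Nfib* peaks in the *Grik1*-led and *Nfia* in the *Cntn5*-led bipolar cluster.

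Within MGs, most cells held at least 1 member. After thinning each MG to 2000 UMIs, which leaves 4858 MGs and drops 1684 shallower ones, *Nfia* was seen in 47.6% (exact 95% interval 44.7 to 50.4), 52.3% (50.1 to 54.5), 59.6% (55.9 to 63.2) and 51.7% (48.5 to 55.0) of MGs in the 4 libraries. *Nfib* was seen in 48.4%, 41.0%, 60.7% and 42.0%, *Nfic* in 16.1%, 18%, 18.9% and 20.3%, and *Nfix* in 49.4%, 62.3%, 53.4% and 52.2%. These intervals cover counting error only, and *Nfia* and *Nfib* both had their largest share in *Yap5SA* AAV replicate 1, the library with the deepest MGs before thinning. Rods thinned the same way are given for comparison, since RNA free in the droplets was not measured. Of these, 3.05% and 2.16% had *Nfia*, 2.33% and 1.51% *Nfib* and 5.57% and 1.94% *Nfix* in *mKate2* AAV replicate 2 and *Yap5SA* AAV replicate 3. *Nfic* was seen in 22.6% and 18.3% of rods, against 18% and 20.3% of MGs of the same libraries, so its share did not set MGs apart. Not thinned, the shares follow the depth of each library and are not compared.

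At 2000 UMIs, 10.7% of MGs had no member, 31.2% had 1, 36% had 2, 19.5% had 3 and 2.57% had all 4. *Nfib* was seen in 51.1% of MGs with an *Nfia* UMI and in 40.2% of those without. The difference had the same sign in each library, from 62.4% against 58.2% in *Yap5SA* AAV replicate 1 to 49.9% against 33.6% in *Yap5SA* AAV replicate 3. *Nfix* was seen in 57.3% of MGs with *Nfia* and 54.3% of those without, and in *Yap5SA* AAV replicate 1 the order was turned, at 52.7% and 54.4%. An absent UMI at this depth does not show that a cell lacked the transcript.

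MGs of each library were then split at the median of a per-cell score that used no NFI gene. Above-median MGs by UMIs had a higher CPM of *Nfia* and *Nfib* and a lower one of *Nfix* than below-median MGs of the same library. *Nfia* went from 297 to 473, 387 to 712, 524 to 698 and 376 to 744 CPM, higher in 4 of 4 libraries. *Nfib* went from 313 to 408, 276 to 502, 445 to 598 and 273 to 531 CPM. *Nfix* went the other way, from 419 to 316, 593 to 490, 474 to 402 and 439 to 382 CPM, lower in 4 of 4. The ratio of *Nfia* to *Nfix* UMIs, which no scaling can change, moved from 0.709 to 1.5, 0.653 to 1.45, 1.11 to 1.74 and 0.858 to 1.95.

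In the fit across 14278 genes, 5.34% of genes were called between above-median and below-median MGs by UMIs (2.33% higher, 3.01% lower), and 0 of 4 members. The log2 fold changes were 0.54 ± 0.19 for *Nfia* (edgeR adjusted p = 0.104), 0.46 ± 0.19 for *Nfib* (adjusted p = 0.148), -0.34 ± 0.18 for *Nfic* (adjusted p = 0.246) and -0.48 ± 0.19 for *Nfix* (adjusted p = 0.134). Between the highest and the lowest 25% of MGs, where 28.1% of 13342 genes were called, all 4 passed: *Nfia* at 0.78 (adjusted p = 0.0068), *Nfib* at 0.63 (adjusted p = 0.0248), *Nfic* at -0.56 (adjusted p = 0.0496) and *Nfix* at -0.73 (adjusted p = 0.0112). Ribosomal share moved with this split, from 7.24%, 11.9%, 6.42% and 10.5% in below-median MGs to 3.46%, 8.77%, 4.77% and 6.92% in above-median MGs, as did mitochondrial share, and 13 of 17 immediate-early genes were called higher in above-median MGs, at a median of 2.06 on the log2 scale. The part of these in the result was not tested.

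Split by ribosomal share, *Nfia* and *Nfib* had lower CPM in above-median MGs. *Nfia* went from 476 to 388, 765 to 362, 754 to 547 and 770 to 379 CPM from below-median to above-median MGs, and *Nfib* from 412 to 360, 546 to 237, 613 to 507 and 551 to 269 CPM, lower in 4 of 4 libraries. *Nfix* went from 316 to 363, 496 to 533, 421 to 412 and 382 to 425 CPM, higher in 3 of 4. Of 14446 genes, 12.7% were called (10.8% higher, 1.97% lower) and 0 members: *Nfia* had -0.40 ± 0.18 (edgeR adjusted p = 0.151), *Nfib* -0.37 ± 0.19 (adjusted p = 0.209) and *Nfix* 0.42 ± 0.18 (adjusted p = 0.139), and *Nfic* had 0.20 ± 0.16 (adjusted p = 0.402) but -0.11 when scaled by total UMIs alone. That scaling moved the median of all genes from -0.09 to -0.40. On simulated counts the split by ribosomal share recovered 0% of 2-fold and 90.5% of 8-fold changes, so 0 members called does not show equal levels. The other splits of MGs were not simulated. Between the highest and lowest 25%, where 45.8% of 12508 genes were called, *Nfib* (-0.58, adjusted p = 0.0433) and *Nfix* (0.82, adjusted p = 0.0127) passed, and *Nfia* at -0.53 did not (adjusted p = 0.0513).

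**Figure D4:**
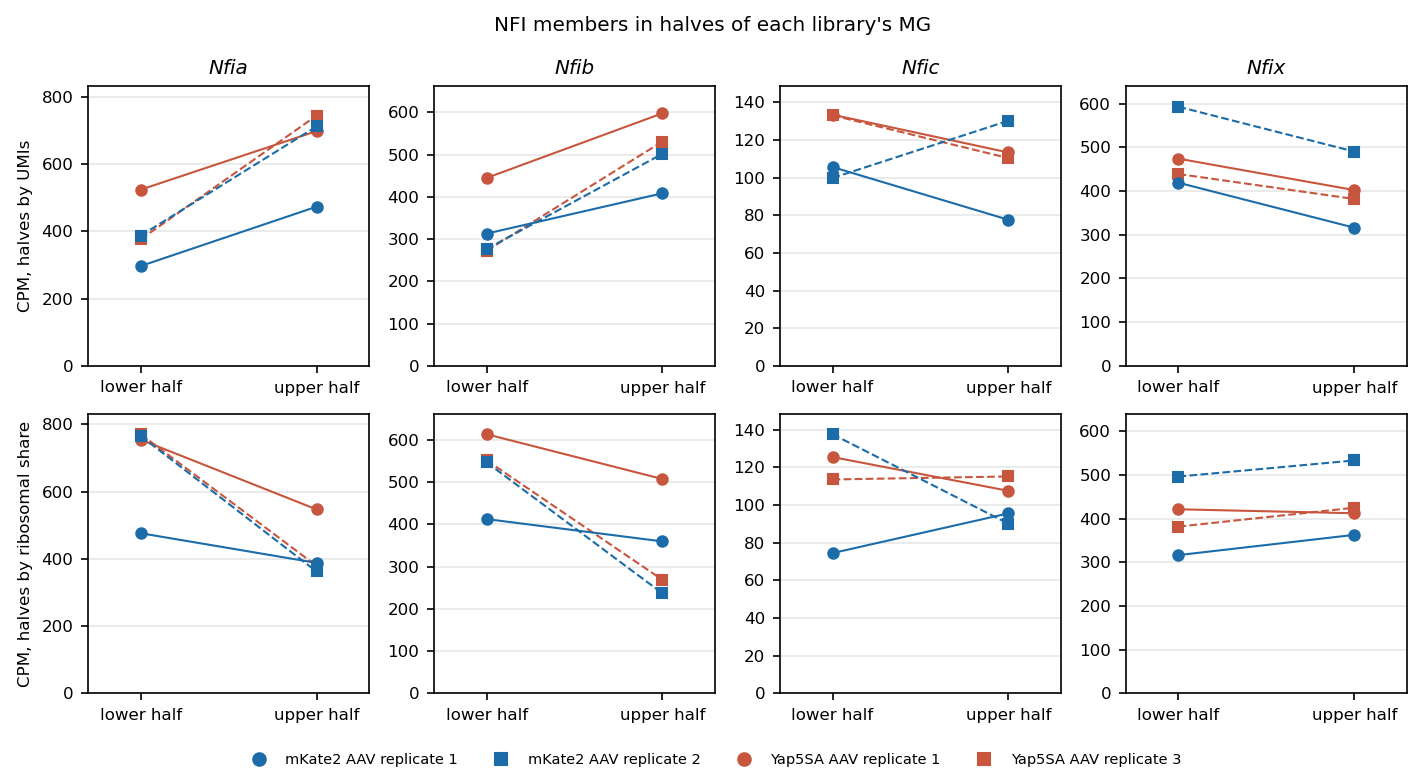
Level of each NFI member (CPM) in below-median (left) and above-median (right) MGs of each library, split by UMIs per cell (top row) and by ribosomal share (bottom row); lines join the values of 1 library. *Nfia* and *Nfib* climb with UMIs and drop with ribosomal share in all 4 libraries, while *Nfix* drops with UMIs in all 4.

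The immediate-early and gliosis scores separated the members little. Split by the share of UMIs from immediate-early genes, the transcription factors that cells induce within minutes of a stimulus, 0.839% of genes were called (0.641% higher, 0.198% lower) and 0 members, and the largest value was -0.17 ± 0.13 for *Nfix* (edgeR adjusted p = 0.559). Split by the share from gliosis genes, 2.70% of genes were called (2.02% higher, 0.678% lower) and 0 members. *Nfia* was at -0.24 ± 0.11 (adjusted p = 0.228) and *Nfib* at -0.21 ± 0.09 (adjusted p = 0.236), and both were lower in above-median MGs of all 4 libraries, *Nfia* by the most in *Yap5SA* AAV replicate 3, from 852 to 536 CPM. *Nfic* (0.16 ± 0.10) and *Nfix* (-0.07 ± 0.10) did not pass either, and *Nfix* was lower in above-median MGs of all 4 libraries by both scores. Immediate-early genes moved with the gliosis split, 16 of 17 called higher at a median of 1.72 on the log2 scale, and their part in the member values was not tested.

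*Yap5SA* AAV and *mKate2* AAV were compared to ask whether the members of MGs differed 56 days after the AAVs were given. No member passed the edgeR test given below. *Nfia* averaged 674 ± 17.1 CPM in *Yap5SA* AAV and 554 ± 157 CPM in *mKate2* AAV MGs (SD, n = 2 libraries each), *Nfib* 528 ± 53.4 and 430 ± 54.5 CPM, *Nfic* 116 ± 2.54 and 104 ± 30.6 CPM, and *Nfix* 404 ± 18.4 and 420 ± 121 CPM. For *Nfib* both *Yap5SA* AAV libraries exceeded both *mKate2* AAV libraries. How many of all genes separated the libraries in that way was not counted, so this does not set *Nfib* apart. For *Nfia* the lower *Yap5SA* AAV value lay just under the higher *mKate2* AAV value. For the other members the *Yap5SA* AAV values lay within the *mKate2* AAV range.

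The log2 fold changes of *Yap5SA* AAV over *mKate2* AAV were 0.16 ± 0.39 for *Nfia*, 0.18 ± 0.32 for *Nfib*, 0.03 ± 0.34 for *Nfic* and -0.18 ± 0.37 for *Nfix* (edgeR adjusted p = 1.00 for each). Of 15285 genes 0% were called, 30 had an unadjusted p below 0.05, and DESeq2 called 0 with 52 below that level. The contrast could not resolve modest changes: on simulated counts it recovered 0% of 2-fold and 52.5% of 8-fold changes. The direction of every member turned when 1 of the *mKate2* AAV libraries was left out. Without *mKate2* AAV replicate 1 the values were -0.18, -0.03, -0.32 and -0.52 for *Nfia*, *Nfib*, *Nfic* and *Nfix*, and without *mKate2* AAV replicate 2 they were 0.63, 0.45, 0.51 and 0.29. Each AAV had 1 library of each Cell Ranger version, and with the version as a term the values were 0.21, 0.20, 0.08 and -0.12 (edgeR adjusted p = 1.00 for each). Between the 8.0.0 libraries, from *mKate2* AAV to *Yap5SA* AAV, *Nfia* went from 443 to 662 CPM, *Nfib* from 392 to 566, *Nfic* from 82.5 to 117 and *Nfix* from 334 to 417. Between the 9.0.1 libraries *Nfia* went from 665 to 686 CPM and *Nfib* from 469 to 490, while *Nfic* went from 126 to 114 and *Nfix* from 505 to 391. *Nfia* and *Nfib* were thus higher with *Yap5SA* AAV within both versions, by little between the 9.0.1 libraries, and the other members had opposite signs. How many of all genes kept their sign in both versions was not counted.

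The share of MGs with a member was compared in the same way. At 2000 UMIs, *Yap5SA* AAV exceeded *mKate2* AAV by 5.71 percentage points for *Nfia* and 6.68 for *Nfib* (exact permutation test, two-sided, p = 0.667 for both), by 2.51 for *Nfic* (exact p = 0.33) and differed by -3.08 for *Nfix* (exact p = 1.00). With 2 libraries against 2, the smallest p that can be reached is 0.33. *Nfic* reached it, with 16.1% and 18% in *mKate2* AAV and 18.9% and 20.3% in *Yap5SA* AAV.

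**Figure D5:**
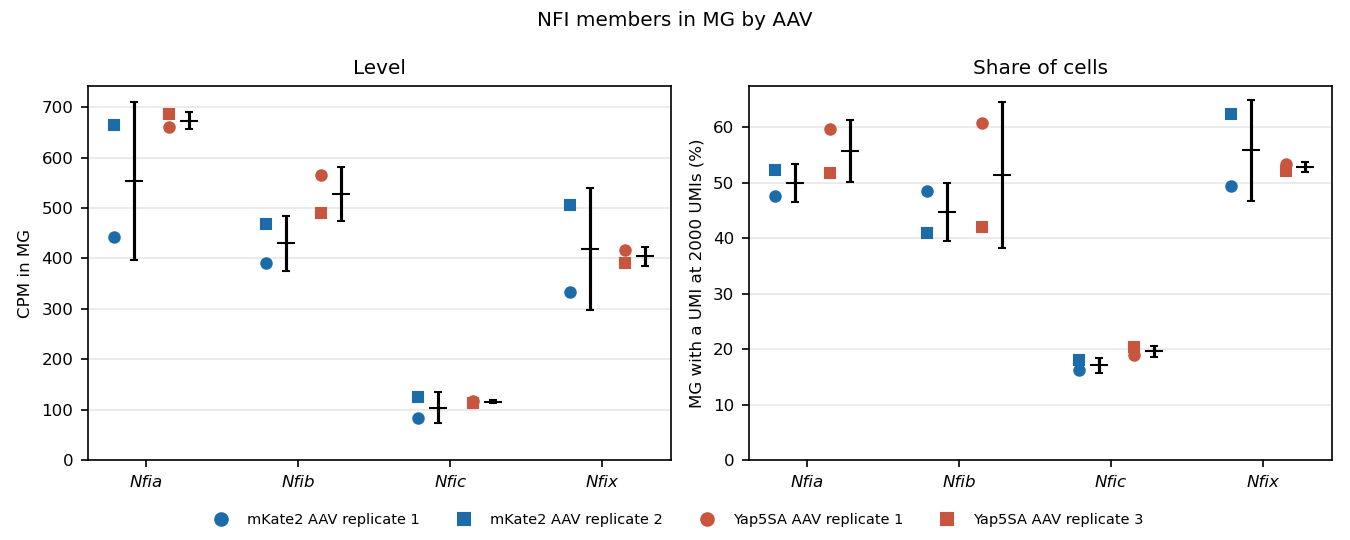
Left, level of each NFI member in MGs (CPM); right, share of MGs with a UMI of it after thinning to 2000 UMIs (%). Points are libraries and black bars the mean ± SD of the 2 libraries of an AAV. *Nfix* lies at 391 to 417 CPM with *Yap5SA* AAV, inside the 334 to 505 CPM of *mKate2* AAV, and *Nfib* at 490 to 566 CPM, above 392 to 469 CPM. Such a separation was not counted over all genes.

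The other cells of the same libraries were checked for the same contrast. In microglia and macrophages 0% of 8619 genes were called (156 had an unadjusted p below 0.05). *Nfia* was at 0.63 ± 0.47, *Nfib* at -0.31 ± 1.06, *Nfic* at 0.58 ± 0.48 and *Nfix* at -0.71 ± 0.41 on the log2 scale (edgeR adjusted p = 0.999 for each). Rods had 1 library for each AAV, so their values, given above, could not be tested.

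Genes that work with or around the NFI factors in glia were followed as lists, of which the 20 glial transcription factors and Notch effectors are the nearest in role. Of these, 18 were higher in MGs in each of the rod, cone and bipolar contrasts, and 16 in each of the amacrine and microglia contrasts, with medians of 4.82, 5.50, 5.13, 4.06 and 3.68 on the log2 scale. The medians over all genes in these contrasts were 0.28, 0.24, 0.04, 0.11 and 0.27, and 29.1%, 21.9%, 23.5%, 21.7% and 30.5% of all genes were called higher. *Sox9*, a factor that MGs keep from their progenitors, was higher by 6.20 than in rods and 4.80 than in bipolar cells, and *Hes1*, a Notch effector, by 5.94 and 5.91. *Pax6*, which the amacrine gate uses, was higher against every class but amacrine cells, and *Rbpj* and *Id2* were lower in MGs than in microglia, by -2.08 and -1.59.

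Of 12 astroglial genes that NFIA is known to bind or drive, 10, 10, 9, 11 and 11 were higher in MGs than in rods, cones, bipolar cells, amacrine cells and microglia. Among all genes, 29.1%, 21.9%, 23.5%, 21.7% and 30.5% were called higher in those contrasts. *Slc1a3* and *Aqp4* of this list are also MG gate genes. *Aldh1l1*, a folate enzyme used as an astrocyte marker, was higher by 6.52 than in rods and 6.30 than in bipolar cells. *Fabp7* and *Slc1a2* were lower in MGs than in cones, by -5.88 and -1.27. Of 11 quiescence genes and cell cycle inhibitors, 8, 8, 6, 7 and 7 were higher, against the same shares over all genes. *Cdkn1b* (p27) was higher in each contrast by 1.97 to 2.91, while *Smad3* was lower against bipolar cells by -1.58. *Cdkn1a*, *Smad3* and *Tgfbr2* were lower against microglia by -3.32, -1.20 and -4.33. Of 16 cell cycle genes, 10 were lower in MGs than in microglia and macrophages, *Mki67* by -6.54 and *Top2a* by -5.67, and 1 was higher, *Ccnd3* at 1.54. Among all genes, 22.6% were lower and 30.5% higher in that contrast. Against rods, cones, bipolar and amacrine cells, 6, 4, 7 and 6 were higher and 1, 1, 1 and 3 lower, against 29.1%, 21.9%, 23.5% and 21.7% higher and 17.9%, 15.8%, 21.0% and 18.7% lower among all genes, so that 4 of 16 in cones and 3 of 16 in amacrine cells are near the share over all genes. The D cyclins *Ccnd1*, *Ccnd2* and *Ccnd3* were higher in all of these contrasts.

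The remaining lists were counted in the same fit. Of 13 progenitor and proneural genes tested, 5, 3, 1, 2 and 7 were higher in MGs than in rods, cones, bipolar cells, amacrine cells and microglia, and 4, 5, 3, 2 and 0 lower. Among all genes these shares were 29.1%, 21.9%, 23.5%, 21.7% and 30.5% higher and 17.9%, 15.8%, 21.0%, 18.7% and 22.6% lower, so that 3 of 13 against cones is near the share over all genes and 1 and 2 of 13 lie below it. Of 14 gliosis genes, 11, 10, 12, 13 and 9 were higher and 1, 0, 0, 0 and 1 lower. Of 17 immediate-early genes, 8, 5, 13, 12 and 0 were higher and 0, 0, 0, 0 and 7 lower, all in the same order of contrasts.

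Between *Yap5SA* AAV and *mKate2* AAV MGs, no gene of any list was called by edgeR or DESeq2. The glial transcription factors had a median log2 fold change of 0.09, with 12 of 20 above 0, from *Hes1* at 0.48 and *Notch2* at 0.34 to *Id4* at -0.41 and *Sox9* at -0.18. The astroglial NFIA genes had a median of -0.16, from *Gja1* at 0.76 and *Mmd2* at 0.05 to *Gfap* at -1.45 and *S100b* at -0.60, and the quiescence genes -0.20, from *Tgfbr2* at 0.31 and *Cdkn2c* at 0.07 to *Cdkn1a* at -1.05 and *Btg2* at -0.51. The cell cycle genes had a median of -0.12, with *Ccna2* at 1.11, *Cdk6* at 0.15, *Ccnd2* at -0.55 and *Top2a* at -1.05 as their extremes. The median over all genes was -0.03. Progenitor and proneural genes stood at 0.25, with *Otx2* at 1.29, *Neurod1* at -0.67 and *Neurod4* at -1.51. The gliosis list stood at -0.46, with *C4b* at -0.02, *Mt1* at -0.11, *Serpina3n* at -1.84 and *Lcn2* at -2.19, and the immediate-early list at -0.69, with *Ier2* at 0.10, *Ier3* at 0.09, *Fosl2* at -1.14 and *Nr4a1* at -1.35. Single libraries turned some of these medians. Without *mKate2* AAV replicate 1, *mKate2* AAV replicate 2, *Yap5SA* AAV replicate 1 and *Yap5SA* AAV replicate 3 in turn, the immediate-early median was -1.64, 3.35, 0.08 and -2.45, the gliosis median -0.97, 0.23, -0.30 and -0.66, and the NFI median -0.25, 0.48, 0.06 and 0.08.

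Likeness to each member was measured over 16 sums of a library and class as the Pearson correlation of log2(CPM + 1), among 10494 genes with a mean of at least 10 CPM. The sums share libraries, depths and only 6 classes, so these are descriptions. *Nfia* was most like *Prkg1*, a cGMP-dependent kinase (r = 0.949), *Arhgap23* (0.945) and *L3mbtl3* (0.939). *Nfib* was most like *Unc13c* (0.975), *Pak3* (0.975) and *Fhl1* (0.970), and *Nfix* like *Fads1*, a fatty acid desaturase (0.958), *Ass1*, the argininosuccinate synthase (0.940), and *Efnb1*, an ephrin (0.927). *Nfic* was most like *Gm8797* (0.866), *Spata6* (0.831) and *U2af2*, a splicing factor (0.828). Among the members, *Nfia* and *Nfib* were at 0.878, *Nfib* and *Nfix* at 0.751 and *Nfia* and *Nfix* at 0.733, while *Nfic* was at -0.674, -0.559 and -0.511 with the other 3.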

How the data were processed

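Retinal cells were captured with the 10x Chromium 3' v3.1 kit. The deposited files hold UMI counts per gene and cell, which the authors made with Cell Ranger against GRCm39; the submitters' processing notes name version 8.0.0, and the headers of *mKate2* AAV replicate 2 and *Yap5SA* AAV replicate 3 name 9.0.1. The members and lists were chosen with earlier results of these data known. Named genes were the members, list genes past an adjusted p of 0.05 or, where none passed, the highest 2 and lowest 2, and the 3 genes most like each member; of the many list genes called between cell classes only examples are named, and some list genes are not reported here. From the counts, cells were gated (rod markers at least 1% of UMIs, cone 0.5%, bipolar 0.2%, amacrine 0.1%, microglia 0.5%, each with at least 3 UMIs; MGs first), summed per library and class, and tested with edgeR 4.0.16 (TMM, filterByExpr, quasi-likelihood) in R 4.3.3, with DESeq2 1.42.0 as an alternative. CPM is UMIs per 1000000 UMIs of a sum. Doublets were not removed: 204, 259, 106 and 292 MGs of the 4 libraries passed another gate or had at least 2% of UMIs from pigment epithelium markers. The latter alone held for 0, 20, 3 and 60 MGs, some of which may have passed another gate too. Clusters came from scanpy 1.11.5 (Leiden), and gene positions from GENCODE. Shares were compared by exact permutation and given Clopper-Pearson intervals. The AAV fit in MGs, a fit of MGs against microglia and the split by ribosomal share were tested on simulated data. The study's own filters and cell type labels were not used here. PCR and sampling noise beyond UMI counting is not in the intervals. Alternatives were another scaling, filter, gate, depth and tool, and each library left out.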

Additional observations from a re-analysis of the deposited data

How the results depend on the processing

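No paired analysis was possible because the AAV groups share only replicate number 1 once *Yap5SA* AAV replicate 2 is left out, so no fit with a replicate block could be made (the fit with Cell Ranger version as a term, which sets 1 library of each AAV against the other within a version, is in the report); cell classes and MG subsets were compared within libraries throughout. Among values of single members under an alternative, 378 kept direction and side of the threshold, 25 lost the call, 12 gained it, 23 changed sign and 4 moved by more than their spread. Those 4 were levels with classes named by clusters, 1 in amacrine cells, 2 in bipolar cells and 1 in rods. Members called between MGs and other classes ranged from 10 to 15 of 20 when a library was left out.
The sign changes were all in values that had not passed. *Nfia* against bipolar cells turned to 9.5e-05 with no filter, 0.088 at 2000 UMIs per cell and 0.22 with strict gates, and ran from -0.20 to 0.20 with a library left out. *Nfic* against rods turned to -0.14 with total UMIs, -0.25 with an MG gate of 1%, -0.025 when thinned to 1000 UMIs, and ran from -0.12 to 0.28 with a library left out. Between AAVs, the ranges with a library left out, from without *mKate2* AAV replicate 1 to without *mKate2* AAV replicate 2, were -0.18 to 0.63 for *Nfia*, -0.032 to 0.45 for *Nfib*, -0.32 to 0.51 for *Nfic* and -0.52 to 0.29 for *Nfix*; *Nfib* in microglia ran from -0.93 to 0.0040, the latter without *Yap5SA* AAV replicate 3. *Nfic* by ribosomal share turned to -0.11 with total UMIs. By immediate-early share, *Nfia* turned to -0.0018 at 2000 UMIs and *Nfic* to 0.047 with total UMIs, and with a library left out *Nfia* ran from -0.0041 to 0.029, *Nfib* from -0.021 to 0.038 and *Nfic* from -0.040 to 0.077. The share difference of *Nfib* turned to -2.65 points without *Yap5SA* AAV replicate 1 (leave-one-out range -2.65 to 16.0), and that of *Nfix* to 1.26 points not thinned (leave-one-out range -9.51 to 3.35).
Counts of genes called moved more. Against amacrine cells 6718 were called, 2914 with an MG gate of 1%, 3609 when thinned and 2697 to 6807 with a library left out; against bipolar cells 7427, then 4936, 4725 and 3260 to 7557; against cones 6280, 2622 when thinned and 3148 to 6312; against microglia 8837 and 3687 when thinned; against rods 7823, 4837 when thinned and 4103 to 7940. Between AAVs in microglia 0 to 26 were called with a library left out. By UMIs 763 were called, 0 with total UMIs, 2 with the 1% gate, 1 at 2000 UMIs, 3755 between the outer 25% and 0 to 2874 with a library left out. By ribosomal share 1841 were called, then 554, 5, 2, 5733 and 0 in every library left out. By immediate-early share 123 were called, 344 between the outer 25% and 40 to 267 with a library left out; by gliosis share 394, 708 and 71 to 475. Members called by cell state rose from 0 to 6 of 16 between the outer 25%, and ranged 0 to 1 with a library left out, the 1 being *Nfia* by UMIs (0.62, edgeR adjusted p = 0.0424) without *Yap5SA* AAV replicate 1. The cause of these moves was not tested.
Total-UMI scaling changed the split of genes higher and lower in MGs to 7057 and 2855 from 5078 and 3759 against microglia, 2924 and 3995 from 3609 and 3109 against amacrine cells, 3092 and 3431 from 3646 and 2634 against cones, 3597 and 3944 from 3924 and 3503 against bipolar cells, and 4428 and 3605 from 4846 and 2977 against rods. Counts of a member as low as 2 UMIs in cones and 0 in microglia, and 2 libraries per AAV, limit the precision.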

Other observations

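MGs differed among themselves in the members, given here as values of Leiden clusters made mostly of cells past the MG gate. *Nfia* ran from 302 to 1084 CPM over those clusters other than the pigment cluster below. The highest was a cluster of 442 cells led by *Gm11906* and *Abca8b*, which also had the most *Nfib* of them, 719 CPM, and 375 CPM of *Nfix*. In the 4 libraries its *Nfia* level was 702, 1826, 925 and 1282 CPM, and its median ribosomal share was 2.61%, 0.345%, 1.14% and 0.315%. *Nfix* was highest in a cluster of 870 cells led by *Mt2*, *S100a16* and *Isg15*, at 650 CPM, where *Nfia* stood at 412 CPM.

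A cluster of 98 cells led by *Ttr*, *Rgr* and *Rpe65*, genes of the retinal pigment epithelium, passed the MG gate in 95.9% of its cells, and *Yap5SA* AAV replicate 3 gave 60 of these cells, *mKate2* AAV replicate 2 another 34. It held 167 CPM of *Nfia*, 184 of *Nfib*, 183 of *Nfic* and 133 of *Nfix*, the lowest *Nfia* and *Nfix* and the highest *Nfic* of the clusters past the MG gate. An unnamed cluster of 320 cells led by *Igfbp2*, *Apod* and *Rgs5*, of which 22.2% passed the MG gate, held 221 CPM of *Nfia*, 265 of *Nfib* and 202 of *Nfix*.

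tdTomato UMIs were counted only in *mKate2* AAV replicate 1 and *Yap5SA* AAV replicate 1. At 2000 UMIs, *Nfia* was seen in 51.2% of 604 MGs with a tdTomato UMI and 43.9% of 586 without in the former, and in 62.4% of 489 and 53.4% of 221 in the latter. *Nfix* was at 54.0% and 44.7%, and at 53.2% and 53.8%. The MGs with tdTomato were deeper before thinning, at medians of 9949 against 6628 and 14442 against 7822 UMIs, and the part of depth in these shares was not tested.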
